A study of Mus musculus with 15 samples.

Results

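The promoters of the TNF receptor signalling complex were examined for the positions of nucleosomes in mouse cells. The complex was represented by 10 genes, which comprised both receptors (Tnfrsf1a and Tnfrsf1b), the adaptors and scaffold proteins Tradd, Ripk1, Traf1 and Traf2, the ubiquitin ligases Birc2 and Birc3, and the kinases Map3k7 and Ikbkb. Members were chosen by gene name, and each had 1 promoter among the 25881 promoters (22770 genes) of the deposited table. The coverage score of a promoter counts the sequenced fragments near its transcription start site (TSS), and a score above 100 was taken as high coverage, which 13559 promoters reached. Of the members, 9 passed. Birc3, with a score of 82, did not, so that its tests come from a separate fit of all 25881 promoters.

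Nucleosomes were mapped by ChIP-MNase. Chromatin in large pieces is recovered with an antibody and digested on the beads by micrococcal nuclease, so that DNA wrapped around a nucleosome is left for sequencing. There were 15 libraries. With the antibody to H3K4me1, a histone mark of promoters and enhancers, libraries were made from DCs (dendritic cells differentiated in vitro from bone-marrow progenitor lines), either non-stimulated or given LPS at 100 ng/ml for 1 h, and from the mouse fibroblast line 3T3, either non-stimulated or given TNF-α at 5 ng/ml for 1 h. Each of these 4 sets pools 2 replicates and so has no replicate error. A further 8 single H3K4me1 libraries, 2 per group, came from control and BAF-knockdown 3T3 fibroblasts without and with the same TNF-α treatment. BAF is a chromatin remodelling complex. Its knockdown used 1 stable shRNA against a sequence shared by the ATPases Brg1 and Brm, delivered with GFP by a retrovirus and followed by sorting for GFP. Whether the control cells carry a vector was not given in the sources used here, and the extent of the knockdown was not analysed here. The last 3 libraries used antibodies to RNA polymerase II phosphorylated on serine 7 (S7P, 2 libraries) or serine 5 (S5P, 1 library) in TNF-stimulated fibroblasts. These were sequenced paired-end and the H3K4me1 libraries single-end, so antibody and type of sequencing cannot be told apart. The labels number the replicates, except for S5P, and the study calls them biological. For S5P the study lists 2 replicates. Whether the S5P library here is 1 of them or a pool was not given in the sources used here. How the cultures were separated was not given in the sources used here, and p-values measure the spread between these samples.

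TNF binds the receptors TNFR1 (Tnfrsf1a), found on most cell types, and TNFR2 (Tnfrsf1b), found mainly on immune cells. The engaged TNFR1 gathers the adaptor TRADD, the kinase RIPK1 and the scaffold TRAF2, which brings in cIAP1 and cIAP2 (Birc2 and Birc3). These ubiquitin ligases build chains on RIPK1 that serve as a platform for TAK1 (Map3k7) and for the IKK complex with its catalytic subunit IKKβ (Ikbkb), and the pathway ends in the activation of NF-κB. TNF itself is the stimulus given to the fibroblasts here, and several of the genes, Traf1 and Birc3 among them, are known NF-κB targets. At an active promoter the DNA just upstream of the TSS is usually poor in nucleosomes, which is called the nucleosome-depleted region (NDR), and nucleosomes on either side tend to hold regular positions.

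The sequences upstream of the TSS are shown for the 4 members whose patterning passed the test described below, for the most variable member and for the most AT-rich member. All are from the mm9 genome sequence, read 5′ to 3′ on the strand of the gene, end before the TSS, and leave out annotated exon bases. This shortens those of Ripk1 and Tradd because exons of other transcripts begin close by. It also takes 10 bases from that of Map3k7, which belong to exons of Map3k7 itself. Capitals mark the GC box GGGCGG (or CCGCCC where it lies on the other strand) and the NF-κB consensus. Ripk1 is chr13:34094664-34094742 (plus strand), Tradd chr8:107788510-107788547 (minus), Tnfrsf1a chr6:125299591-125299740 (plus), Tnfrsf1b chr4:144836774-144836923 (minus), Map3k7 chr4:32050932-32051071 (plus) and Birc2 chr9:7835256-7835405 (minus).
Ripk1: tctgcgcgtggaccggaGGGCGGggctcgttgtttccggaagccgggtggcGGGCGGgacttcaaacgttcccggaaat
Tradd: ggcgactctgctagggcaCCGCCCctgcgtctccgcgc
Tnfrsf1a: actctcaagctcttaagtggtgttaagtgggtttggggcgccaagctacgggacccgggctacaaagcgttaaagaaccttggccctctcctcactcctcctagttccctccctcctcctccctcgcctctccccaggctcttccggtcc
Tnfrsf1b: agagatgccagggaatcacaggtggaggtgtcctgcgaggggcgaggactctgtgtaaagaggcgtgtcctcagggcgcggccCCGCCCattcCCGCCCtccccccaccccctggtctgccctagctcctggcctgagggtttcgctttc
Map3k7: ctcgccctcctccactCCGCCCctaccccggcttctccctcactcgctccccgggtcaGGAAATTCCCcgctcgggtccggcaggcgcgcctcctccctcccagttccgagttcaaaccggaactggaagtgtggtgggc
Birc2: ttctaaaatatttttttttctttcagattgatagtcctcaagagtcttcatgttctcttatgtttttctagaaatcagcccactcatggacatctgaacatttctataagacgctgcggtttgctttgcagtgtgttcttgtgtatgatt

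Within the 150 bp before the TSS, exon bases included and on both strands, GGGCGG was found in 5 of 10 members (Map3k7, Ripk1, Tnfrsf1b, Tradd and Traf2), against 37.3% of 25738 promoters with a sequence. The NF-κB consensus was found in Map3k7 alone, against 2.48% of promoters. CCAAT was found in 1 member, Traf1, against 26.1%, and TATAAA in 0 members, against 7.43%. A CpG island (GC content above 50% and observed to expected CpG above 0.6 within 200 bp of the TSS) was called for 5 members, Ikbkb, Map3k7, Ripk1, Tradd and Traf2, against 48.3% of promoters. GC content ranged from 32.25% in Birc2 to 74.25% in Map3k7. Both adaptor genes have a neighbour that starts in the opposite direction, Serpinb6a 80 bp upstream of Ripk1 and Fbxl8 54 bp upstream of Tradd, so that part of what is read as the NDR of these members is also that of the neighbour.

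Each library averages over many cells, and partial occupancy at every allele cannot be told apart from a mixture of open and closed alleles. The deposited values are relative to their surroundings and hold no read counts, so depth was followed as the share of 10 bp bins holding any signal. Over high-coverage promoters this share ranged from 82.0% to 90.2% for pooled sets, from 63.5% to 78.1% for single H3K4me1 libraries and from 69.2% to 81.2% for pol-II libraries. By the public RNA-seq values deposited with the promoters, 7 of 8 DC marker genes were active in DCs and 1 of 8 in fibroblasts (Cd86 and Flt3 were listed at 0), while 8 of 8 fibroblast markers were active in fibroblasts and 4 of 8 in DCs. By the same values all 10 members were active in DCs and 8 in fibroblasts, where Traf1 (above 38.1% of promoters) and Ikbkb (above 59.4%) fell short of the threshold.

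Occupancy is given relative to the mean of high-coverage promoters in the same library, which is 1. The log2 NDR ratio compares occupancy from -150 to 0 bp with that from -1000 to -500 bp, with 0.1 added to both, and is negative where the NDR is depleted. The patterning level sums, over the 200 bins within 1000 bp of the TSS, the product of the template (the mean profile of active promoters of that cell type, centred on 0) and the occupancy less its own mean over these bins. It is above 0 where a promoter resembles the average active promoter, and the median promoter had 2.36 to 3.39 in the single H3K4me1 libraries. This median was 2.36 and 3.35 in non-stimulated and 2.41 and 3.34 in stimulated controls. In knockdown cells it was 2.44 and 2.51 without TNF and 3.39 and 3.32 with TNF.

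The mean profiles of the members took several forms. In Ripk1, Tradd, Tnfrsf1a and Tnfrsf1b a broad gap around the TSS was bordered by a nucleosome on each side. Traf2 had, in the mean, a peak just before the TSS and a low farther upstream, whereas Birc2 and Traf1 were shallow and the profiles of Birc3, Map3k7 and Ikbkb irregular. In the mean of the 8 single libraries, patterning levels were above 0 at 4 of the 9 high-coverage members (limma, Benjamini-Hochberg adjusted p under 0.05), while 24.4% of all promoters were called, 22.8% above 0. These 4 were Ripk1 (9.80 ± 4.86, SD, n = 8, adjusted p = 0.00741), Tnfrsf1b (9.28 ± 6.98, adjusted p = 0.0158), Tnfrsf1a (8.53 ± 4.83, adjusted p = 0.0153) and Tradd (5.66 ± 2.54, adjusted p = 0.0164). The adjusted p of the other 5 members ranged from 0.307 (Traf1) to 0.943 (Birc2). Levels were above 0 in all 8 libraries at 3 of 9 members, against 15.5% of promoters.

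**Figure D1:**
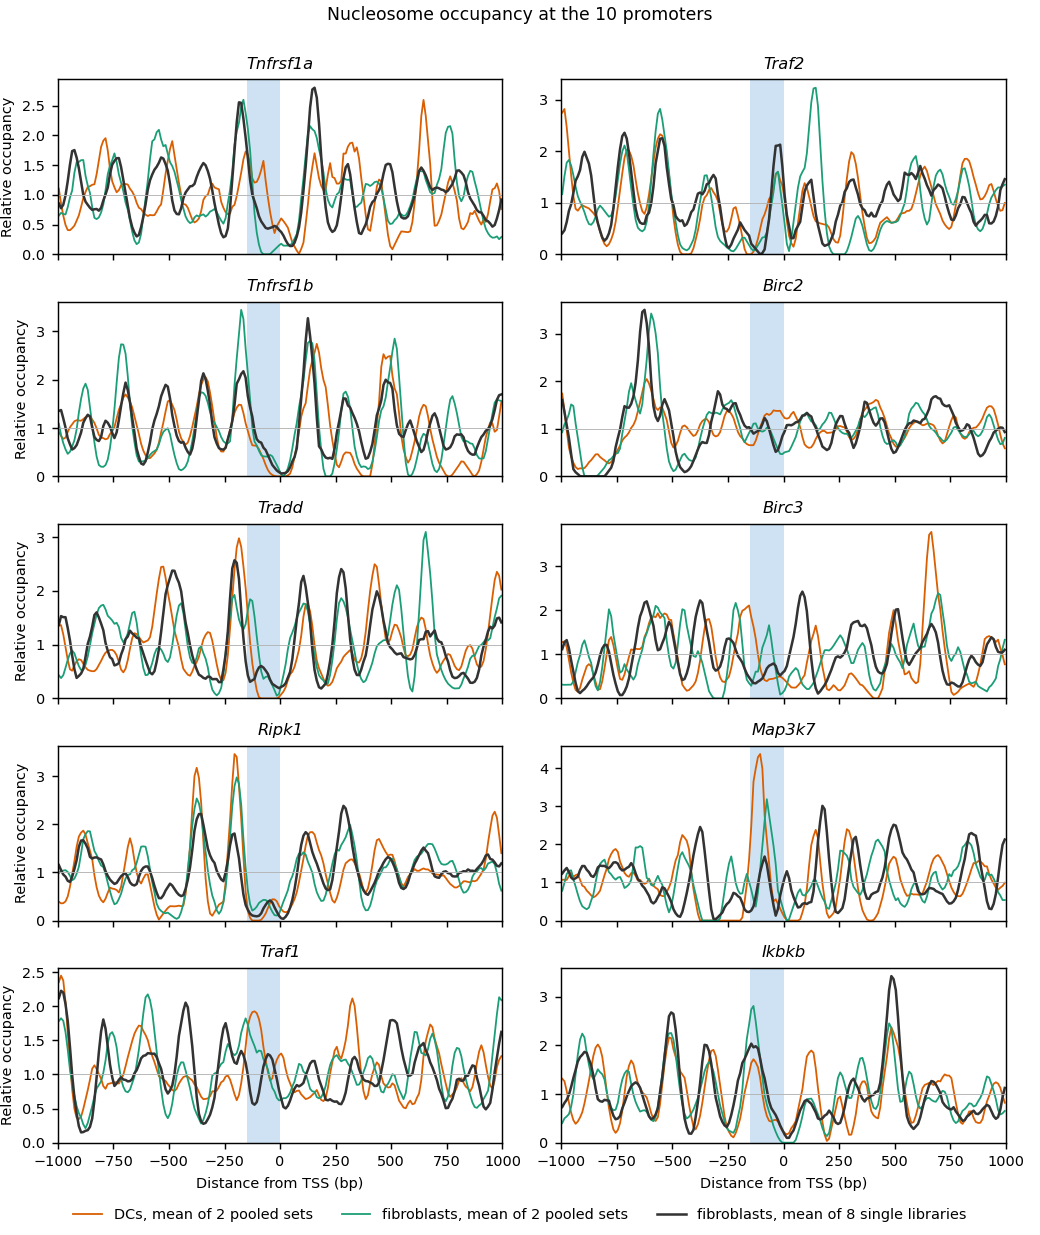
Nucleosome occupancy (relative to the library mean, vertical axes) against the distance from the TSS in bp (horizontal axes) for the 10 members, as the mean of the pooled DC sets, of the pooled fibroblast sets and of the 8 single fibroblast libraries. Ripk1, Tnfrsf1a, Tnfrsf1b and Tradd have peaks on both sides of the TSS 290 to 340 bp apart in the mean of the 8 single libraries, while Traf2 has a peak at -15 bp.

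The receptor promoters had a peak on each side of the TSS in the mean profiles of both cell types. At Tnfrsf1a (chr6:125299741, plus strand) the peaks next to the TSS lay at -185 and 155 bp in the mean of the 8 single libraries and at -155 and 155 bp in the mean of the pooled DC sets. The DC sets differed from that mean, with peaks at -155 and 25 bp without and at -75 and 5 bp with LPS when smaller peaks were counted too. Patterning levels of Tnfrsf1a were 1.95 and 10.2 in non-stimulated controls, 8.33 and 7.67 in TNF-stimulated controls, 5.52 and 9.99 in non-stimulated BAF-knockdown cells, and 6.05 and 18.5 in stimulated ones. All 8 values were positive, and the groups overlapped. In the pooled sets Tnfrsf1a was at 3.65 and -2.51 in DCs without and with LPS, and at 5.24 and 12.4 in fibroblasts without and with TNF. The stimulated DCs were thus the only H3K4me1 library with a negative level. The log2 NDR ratio of Tnfrsf1a averaged -0.76 ± 0.86 (SD, n = 8) in the single libraries. It was -0.37 and 0.43 in DCs without and with LPS, so the window of the NDR ratio was not depleted in stimulated DCs. The lowest 150 bp of each promoter was sought from -400 to 250 bp. The lowest 150 bp of Tnfrsf1a in stimulated DCs lay from -30 to 120 bp, partly outside the window of the ratio, with an occupancy of 0.213. In non-stimulated DCs it lay from -100 to 50 bp, with an occupancy of 0.396.

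At Tnfrsf1b (chr4:144836773, minus strand), peaks lay at -165 and 125 bp in the mean of single libraries and at -185 and 165 bp in DCs. Its patterning level was 0.042 and 8.45 in non-stimulated controls, 5.04 and 11.9 in stimulated controls, 5.64 and 7.99 in non-stimulated knockdown cells, and 23.8 and 11.4 in stimulated ones. The highest values were thus those of stimulated knockdown cells and of 1 stimulated control. In these libraries the median promoter was high too (3.39, 3.32 and 3.34), as it was in the second non-stimulated control (3.35). Tnfrsf1b reached 12.6 and 10.0 in DCs, 6.63 and 12.2 in the pooled fibroblasts and 5.15 and 5.70 with S7P, so that all 15 libraries were above 0. Expression of Tnfrsf1b exceeded that of 98.5% of promoters in DCs and of 77.9% in fibroblasts.

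Ripk1 (chr13:34094743, plus strand), the kinase at the centre of the complex, had the lowest mean log2 NDR ratio of the members. Its log2 NDR ratio was -3.44 and -3.06 in non-stimulated controls, -1.84 and -3.33 in stimulated controls, -0.03 and -3.19 in non-stimulated knockdown cells, and -1.26 and -3.01 in stimulated ones. All 8 were below 0, with a mean of -2.39 ± 1.23 (SD, n = 8), and the first replicate of non-stimulated knockdown cells lay closest to 0. The window from -150 to 0 bp of Ripk1 held no signal in 4 of the 8 libraries, which 15.6% of promoters did in at least as many, and there the ratio is set by the 0.1 that was added. Ratios of Ripk1 were -1.09 and -2.90 in DCs, -0.84 and -2.47 in pooled fibroblasts, -2.35 and -2.99 with S7P and -1.80 with S5P. Its peaks at -205 and 115 bp in the mean of the single libraries and at -205 and 145 bp in the mean of the DC sets enclosed both its own TSS and that of Serpinb6a.

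At Tradd (chr8:107788494, minus strand), the adaptor that docks on TNFR1, the log2 NDR ratio was also below 0 in all 8 single libraries. These 2 of 9 members compare with 17.1% of promoters. The ratio of Tradd was -0.63 and -0.59 in non-stimulated controls, -1.04 and -3.46 in stimulated controls, -1.23 and -1.49 in non-stimulated knockdown cells and -3.30 and -0.43 in stimulated ones. Non-stimulated replicates agreed closely and stimulated ones did not. Its patterning level ranged from 1.34 to 9.47 over the 8 libraries, with an SD of 2.54 (a percentile of 3.98 among all promoters), and its coverage score (897.75) was the highest of the members. Between pairs of the 8 libraries the profile of Tradd had a median Pearson r over bins of 0.355, the highest among members, where the median promoter had 0.171.

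**Figure D2:**
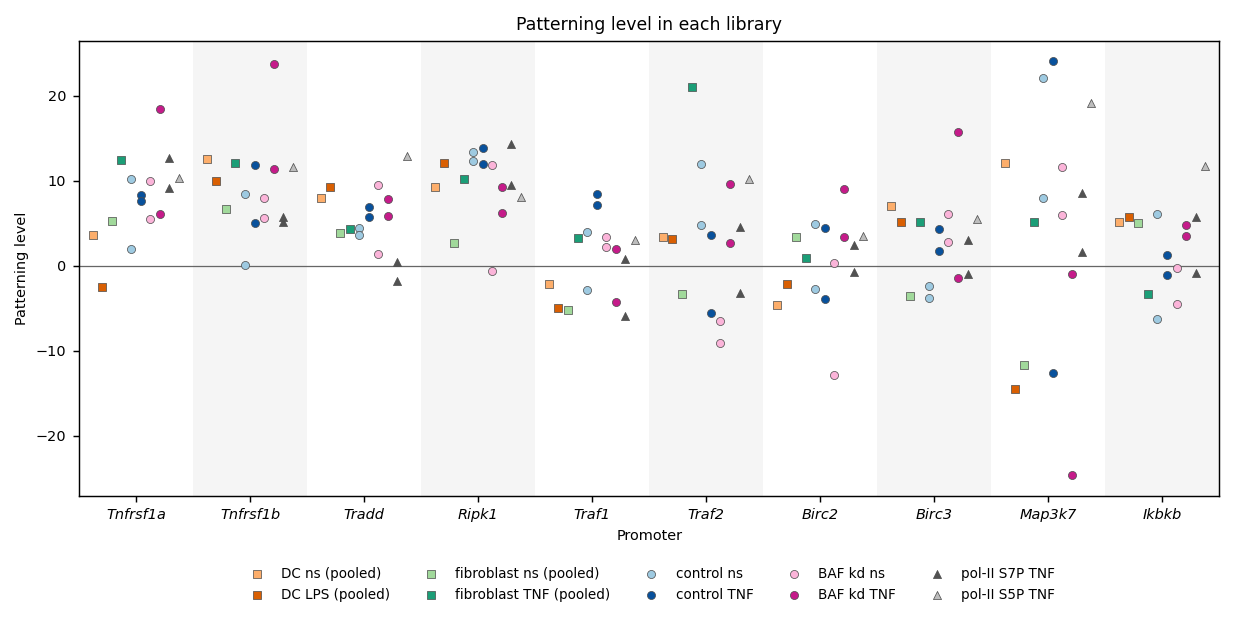
Patterning level (vertical axis, 0 marked by a line) of each member in each of the 15 libraries, with squares for pooled H3K4me1 sets, circles for single H3K4me1 libraries and triangles for pol-II libraries. All points of Tnfrsf1b are above 0, whereas those of Map3k7 reach from -24.6 to 24.1.

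The TRAF promoters differed from this pattern and from each other. Traf2 (chr2:25402414, minus strand), the scaffold that recruits the cIAPs, had a peak at -15 bp in the mean of single libraries and at -25 bp in the means of both pooled cell types. The signal there varied between libraries. The window from -150 to 0 bp was empty in 3 of the 8 single libraries (the second non-stimulated control and both stimulated knockdown libraries) and in the pooled TNF-stimulated fibroblasts, where the nearest upstream peak was at -355 bp. The mean log2 NDR ratio of Traf2 was -1.37 ± 2.04 (SD, n = 8). Its lowest 150 bp lay upstream, from -230 to -80 bp in the mean of single libraries, from -270 to -120 bp in non-stimulated DCs and from -260 to -110 and -300 to -150 bp in fibroblasts without and with TNF. In LPS-stimulated DCs it lay downstream, from 100 to 250 bp, at the edge of the range searched. The annotation places further starts of Traf2 transcripts 16 and 46 bp upstream of the TSS used. Its patterning level averaged 1.44 ± 7.75 (SD, n = 8), and ranged from -9.14 to 12.0.

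Traf1 (chr2:34817292, minus strand), a TRAF without ligase activity of its own, showed little depletion. Its log2 NDR ratio averaged -0.21 ± 0.42 (SD, n = 8) and ran from -0.99 to 0.38. The lowest point between flanking peaks was 0.502 of the mean occupancy. Patterning levels of Traf1 were negative in both DC sets (-2.10 and -4.98), although its expression exceeded that of 87.3% of promoters there.

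The cIAP genes lie next to each other on chromosome 9. Birc2 (chr9:7835255, minus strand) had a log2 NDR ratio of -0.26 ± 0.35 (SD, n = 8), with an SD at a percentile of 4.37 among all promoters, and no library of the 15 had an empty NDR. Its ratios lay between -0.61 and 0.29 in the 8 libraries, so Birc2 varied little around a level near that of its flanks. Its patterning level nevertheless ranged from -12.9 to 9.06. Expression of Birc2 exceeded that of 84.2% of promoters in fibroblasts and 86.6% in DCs. At Birc3 (chr9:7873170, minus strand) the ratio averaged -1.48 ± 1.71 (SD, n = 8) and the NDR was empty in 3 of 8 libraries, in which 51.5% to 61.5% of bins held signal.

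The kinases came last. Map3k7 (chr4:32051082, plus strand), which encodes TAK1, was the least reproducible member. Its patterning level was 8.03 and 22.1 in non-stimulated controls, -12.7 and 24.1 in stimulated controls, 6.01 and 11.6 in non-stimulated knockdown cells and -0.959 and -24.6 in stimulated ones. The SD of 16.6 exceeded that of 99.8% of promoters, and the median r between profiles was 0.00587. Between 39.0% and 83.0% of its bins held signal in a single library. Even the pooled sets of Map3k7 had opposite signs, with 12.1 and -14.5 in DCs and -11.7 and 5.10 in fibroblasts.

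Ikbkb (chr8:23817055, minus strand) encodes the catalytic IKKβ. It had a nucleosome at -145 bp and a low at 15 bp, so that its gap lay over the TSS and not within the window upstream. Its log2 NDR ratio averaged -0.03 ± 0.59 (SD, n = 8), with 4 of 8 libraries below 0, whereas the lowest 150 bp of the mean profile, from -60 to 90 bp, had an occupancy of 0.409. The lowest stretch of Ikbkb thus lay partly outside the window of the NDR ratio.

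**Figure D3:**
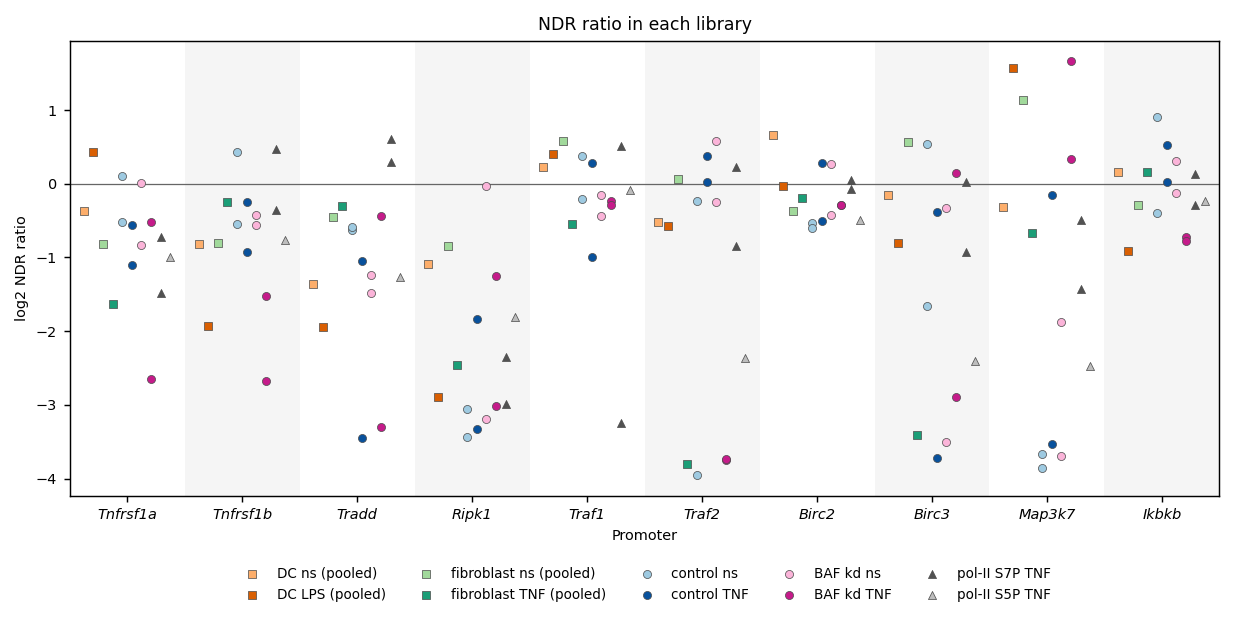
The log2 NDR ratio (vertical axis, 0 marked by a line) of each member in each of the 15 libraries, with the same symbols as for patterning levels. Ripk1 lies below 0 in every library. Birc2 and Ikbkb stay nearest 0, whereas all other members spread over several log2 units, Map3k7 and Traf2 most widely.

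Whether TNF changed nucleosome positions at these promoters was tested on the 8 single libraries, with knockdown as a term. No member passed the test. In both measures 0 of 9 members and 0% of 13559 promoters had an adjusted p under 0.05 (limma). At an unadjusted p under 0.05 there were 774 promoters (5.71%) and 0 members for patterning, and 771 promoters (5.69%) and 1 member for the NDR ratio. No member had TNF-stimulated and non-stimulated libraries that did not overlap, against 2.64% of promoters for patterning and 2.88% for the NDR ratio. The median fitted effect on patterning was 2.29 over the 9 members, from -15.5 to 7.51, where the median of all promoters was 0.298. Standard errors of the members ran from 2.33 (Tradd) to 9.22 (Map3k7), and no single value passed the test. With so few libraries a count of 0 does not show that these promoters were unchanged.

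The member with the smallest p was Map3k7. Its log2 NDR ratio was -3.67, -3.86, -1.87 and -3.69 in the non-stimulated libraries and -0.15, -3.53, 0.34 and 1.66 in the stimulated ones. The groups overlapped through 1 stimulated control. The ratios of -3.67, -3.86, -3.69 and -3.53 came from windows that held no signal, so the 0.1 that was added sets them. That of -0.15 came from signal in 3 of 15 bins. The difference was 2.85 ± 0.91 (SE), with an adjusted p of 0.796, which ranged from 0.312 to 0.950 over the alternatives. With an added 0.5 in place of 0.1 it fell to 1.62. Tnfrsf1b went from 0.43, -0.55, -0.43 and -0.57 without TNF to -0.25, -0.92, -2.68 and -1.53 with TNF, a difference of -1.07 ± 0.46 (SE, adjusted p = 0.887). That of Tnfrsf1a was -0.90 ± 0.55 (adjusted p = 0.902) and that of Tradd -1.07 ± 0.81 (adjusted p = 0.911). The NF-κB targets Traf1 (-0.20 ± 0.39) and, in the fit without a coverage minimum, Birc3 (-0.47 ± 1.29) gave values smaller than their errors.

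**Figure D4:**
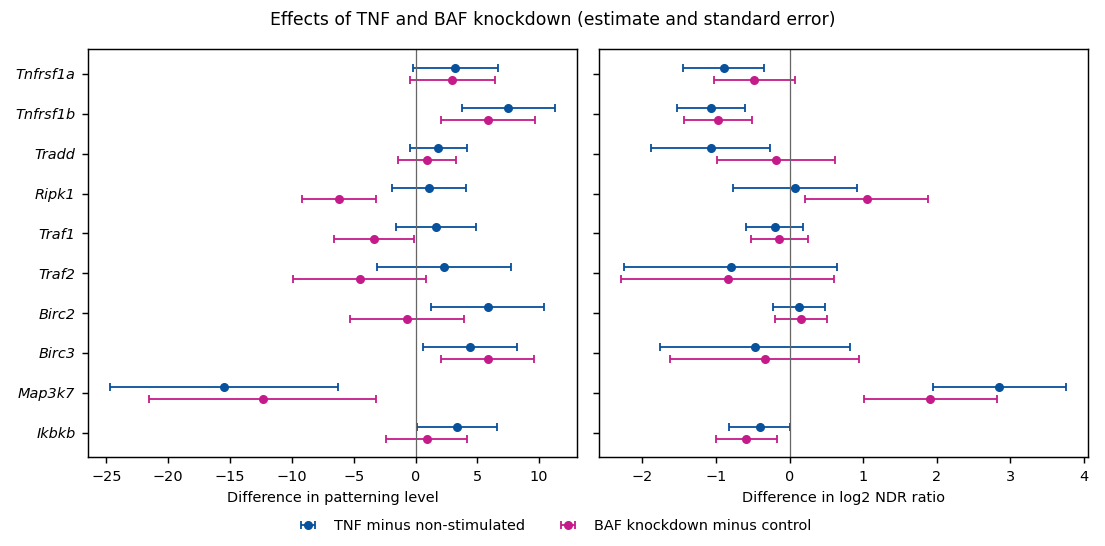
Fitted effects of TNF and of BAF knockdown on patterning level and log2 NDR ratio (horizontal axes), with bars of 1 standard error from limma. None of the 9 high-coverage members passed an adjusted p of 0.05 in these tests. The widest bars belong to Map3k7 for patterning and to Traf2 for the NDR ratio.

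BAF knockdown, aimed at ATPases that slide and evict nucleosomes, was tested in the same fit. Again 0 of 9 members and 0% of promoters were called by limma in either measure. At an unadjusted p under 0.05 there were 793 promoters (5.85%) for patterning and 699 (5.16%) for the NDR ratio, with 0 members among either. In patterning, libraries of knockdown and control cells did not overlap at 1 member, Ripk1, and at 2.94% of promoters. For the NDR ratio this held for 0 members and 2.66% of promoters. Ripk1 had patterning levels of 13.4, 12.3, 11.9 and 13.9 in the 4 control libraries and of -0.58, 11.8, 9.33 and 6.26 in the 4 knockdown libraries. The highest knockdown library was just under the lowest control. The difference was -6.18 ± 3.00 (SE, adjusted p = 0.855), and without the first replicate of non-stimulated knockdown cells it was -3.49. Differences of the other members ranged from -12.4 (Map3k7) to 5.86 (Tnfrsf1b), none beyond the threshold.

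Whether knockdown altered the effect of TNF was tested by the interaction of both terms. Again limma called 0 members and 0% of promoters. The median interaction over all promoters was 0.756 for patterning and -0.164 for the NDR ratio. Both stimulated knockdown libraries had a higher median patterning level than both non-stimulated ones. Such differences between whole libraries were not taken out of this test. At an unadjusted p under 0.05 there were 766 promoters (5.65%) for patterning and 818 (6.03%) for the NDR ratio. Traf2 was the 1 member among both. Its log2 NDR ratio was -0.24 and -3.95 in non-stimulated controls and 0.02 and 0.38 in stimulated controls, but -0.25 and 0.58 in non-stimulated knockdown cells and -3.75 and -3.73 in stimulated ones. The interaction was -6.20 ± 1.71 (SE, adjusted p = 0.614). All 3 ratios near -4 come from windows that held no signal, and with an added 0.5 the interaction was -3.16. Without the first replicate of non-stimulated controls it was -8.06, and without the second -4.34. In patterning, Traf2 had an interaction of 23.3 ± 6.75 (SE, adjusted p = 0.858).

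Libraries recovered through S7P were compared with the H3K4me1 libraries of stimulated controls. Limma called 0 of 9 members and 0% of promoters, whereas 1062 promoters (7.83%) and 1 member had an unadjusted p under 0.05 for patterning, and 1223 (9.02%) and 1 member for the NDR ratio. The member in the NDR ratio was Tradd, whose log2 values were 0.29 and 0.61 with S7P against -1.04 and -3.46 with H3K4me1. The groups did not overlap, as at 38.9% of promoters with 2 libraries on each side, and the difference was 2.70 ± 1.10 (SE, adjusted p = 0.539). It was 1.496 without the second replicate of stimulated controls, in which the window held no signal. With S5P the same promoter was at -1.26, below 0 as in the H3K4me1 libraries. The member in patterning was Traf1, with 0.809 and -5.95 in S7P and 7.18 and 8.43 in H3K4me1 libraries (difference -10.4 ± 3.99, SE, adjusted p = 0.613). In patterning 3 of 9 members did not overlap between these groups, against 36.3% of promoters. In the 1 S5P library all 10 members had a log2 NDR ratio below 0 (73.5% of all promoters) and a patterning level above 0 (73.1% of all promoters), which ran from 3.00 in Traf1 to 19.2 in Map3k7. For patterning 7 members exceeded the median promoter, which had 5.79, and for the NDR ratio 6 lay below the median of -0.91.

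Fibroblasts and DCs were compared through the 4 pooled sets, with stimulation as a term, LPS and TNF sharing 1 term. For patterning, 0 of 9 members were called by limma and 0.0738% of promoters (10 of 13559). At an unadjusted p under 0.05 there were 1217 promoters (8.98%) and 0 members. For the NDR ratio 0% of promoters were called, and 945 (6.97%) with 0 members had an unadjusted p under 0.05. The largest patterning difference was that of Tnfrsf1a, with 3.65 and -2.51 in DCs against 5.24 and 12.4 in fibroblasts (8.27 ± 4.48, SE, adjusted p = 0.639). In patterning 4 of 9 members, Tnfrsf1a among them, did not overlap between the cell types, against 38.7% of promoters, and in the NDR ratio 4 of 9 against 38% of promoters. The log2 NDR ratio of Tradd was -1.36 and -1.94 in DCs and -0.45 and -0.30 in fibroblasts (1.27 ± 0.59, SE, adjusted p = 0.787). In the 8 single fibroblast libraries, however, Tradd averaged -1.52 and ranged from -3.46 to -0.43, a range that holds both DC values. Its lowest value came from a window that held no signal. Traf1, which was active in DCs alone, differed by 2.56 ± 4.38 (SE) in patterning.

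**Figure D5:**
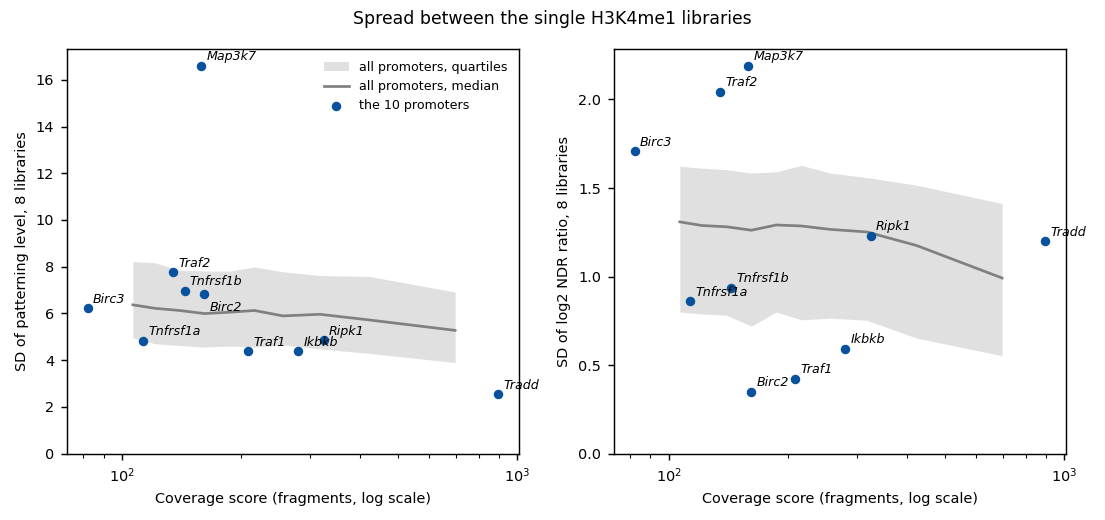
SD over the 8 single libraries of the patterning level and of the log2 NDR ratio (vertical axes) against the coverage score (horizontal axes, log scale), with lines for the median and the quartiles of all high-coverage promoters in 10 classes of coverage and labelled points for members. The median SD of patterning falls from 6.37 in the lowest class to 5.28 in the highest, Tradd lies low and Map3k7 far above the quartiles.

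The spread between libraries was wide beside these differences. Over all high-coverage promoters the median SD over the 8 libraries was 5.96 for patterning and 1.25 for the log2 NDR ratio. It fell little with coverage, from 6.37 at a median score of 107 to 5.28 at a median score of 698. Among members the SD of patterning ran from 2.54 (Tradd) to 16.6 (Map3k7) and that of the NDR ratio from 0.35 (Birc2) to 2.19 (Map3k7). In the SD of the NDR ratio Map3k7 exceeded 97.8% and Traf2 95.8% of promoters. Both have NDRs empty in some libraries and filled in others. This also held for Ripk1 (empty in 4 of 8), with an SD at a percentile of 48.9, and for Birc3 and Tradd.

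Other genes of the TNF pathway gave the surroundings of the complex. Of a list of 43, 42 were found, and 22 of these had a high-coverage promoter (31 promoters). In the mean of the 8 libraries 13 of the 31 promoters (11 genes) had a patterning level above 0 by limma and 0 below (41.9%, against 22.8% of all promoters above 0), with a median level of 3.75 against 2.62 for all promoters. The 5 with the smallest p were Chuk, which encodes the sister kinase of IKKβ (10.6 ± 1.41, SE, adjusted p = 0.00530), the ubiquitin ligases Itch (8.71, adjusted p = 0.0106) and Rnf31 (8.87, adjusted p = 0.0149), the kinase gene Mapk9 (7.91, adjusted p = 0.0154) and 1 of 4 promoters of Ikbkg, the regulatory subunit of IKK (10.1, adjusted p = 0.0158). The other 3 promoters of Ikbkg had mean levels of 3.11, -3.31 and 11.6, so the value of this gene depends on the promoter. In the 10 comparisons between groups 0 of the 31 promoters were called, while 0 to 4 had an unadjusted p under 0.05 in 9 of them. In the S7P comparison of patterning it was 8 (25.8%, against 7.83% of all promoters), 4 higher and 4 lower.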

How the data were processed

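Per the paper's methods, the authors aligned reads to mm9 with bowtie and discarded surplus duplicates. Fragments of mononucleosomal size (paired-end) or reads extended to that size (single-end) were counted per 10 bp bin, scaled by the 1 kb around each bin and smoothed. The submitters' processing notes name Bowtie2 and bedtools. The deposited occupancies are therefore a locally scaled signal in 200 bins per promoter, and empty bins were read as 0. The coverage score and the expression columns were deposited by the authors, the latter from public RNA-seq. 2 further columns hold the authors' own comparisons (log2 differences of expression upon stimulation) and were not used, so active promoters were those with expression above 0.02 times the mean, and inducible ones were not removed. Normalisation to the local total can hide differences in overall occupancy, and single-end fragments blur nucleosome positions.

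Each library was divided by its mean over high-coverage promoters. Patterning levels and log2 NDR ratios were fitted for all 13559 high-coverage promoters with limma 3.58.1 in R 4.3.3, two-sided, with Benjamini-Hochberg adjustment over all of them at 0.05. The terms were stimulation, knockdown and, in a second fit, their interaction. S7P was compared in a fit of group means, and fibroblasts with DCs in a fit of the 4 pooled sets, which leaves 1 residual degree of freedom per promoter beside the moderated spread. The fits were tested on simulated data with known shifts of 2 sizes. Every fit missed nearly all smaller shifts, and the interaction, S7P and cell-type fits missed nearly all larger ones too. The TNF and knockdown fits missed part of the larger ones. All simulated libraries were given the spread of the single H3K4me1 libraries. The outcome may therefore not hold for the pooled sets and the pol-II libraries. A count of 0 in any fit thus does not show that promoters were unchanged. Tables and figures used Python 3.11.15, numpy 2.4.6, pandas 2.3.3, scipy 1.17.1 and matplotlib 3.10.9. Alternatives were no coverage minimum, other scalings, templates, windows and pseudocounts, a replicate block and leaving out each library. Symbols were matched for 96.3% of promoters. Peaks needed a prominence of 0.5.

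The 10 members, the marker and pathway lists and the tests were chosen with earlier results of these data known. The test of the mean over conditions, the peak prominence and the search for the lowest 150 bp were chosen after values had been seen. All members were named whatever their values, and of the pathway list at most the 5 promoters with the smallest p among those passing a test. No intervals were derived, since no read counts were used.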

Additional observations from a re-analysis of the deposited data

How the results depend on the processing

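Among 1161 values of members under the alternatives, 79 changed sign, all of them called in neither fit, and no member gained or lost a call. The 4 members with patterning above 0 passed the threshold in all 14 settings. Of 13559 promoters, 3313 were called in that test, 5158 with the square root of occupancy, and 2189 to 2719 when a library was left out, the fewest without the second replicate of non-stimulated controls (2189) and of stimulated knockdown cells (2208). The 10 promoters called between fibroblasts and DCs became 0 without a coverage minimum, with occupancy as deposited, with its square root and with a template from promoters above the mean expression. For the TNF effect on the NDR ratio the count of 0 became 8 without a coverage minimum, 3 with the NDR taken from -200 to 50 bp and 6 relative to the mean of 2 kb, and 0 to 2 when a library was left out (2 without the first replicate of stimulated controls). The interaction in the NDR ratio gave 1 with the NDR from -200 to 50 bp, and S7P gave 49 without a coverage minimum. The median S7P difference in patterning was -0.163 over all promoters and 0.249 with occupancy as deposited. The cause was not tested.

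Replicate numbers were shared between groups, and deviations of same-numbered libraries had correlations of -0.0075 to 0.021 over promoters. With the wide spread between libraries, whether same-numbered ones shared a culture or a day cannot be told from these values. With a replicate block the 8 comparisons that could be fitted still gave 0 promoters each, and the mean over conditions gave 3034. Leaving out a library leaves 1 in its group, which is then assumed to vary like the others. Pooled sets, with 1 per state, allowed neither a block nor leaving out. A bin without signal cannot be told from a bin not covered, and no read counts were used.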
